A study of Mus musculus with 18 samples.

Results

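The transcripts of actin and of abundant actin-binding proteins were followed in mouse bone marrow-derived macrophages, as 10 named genes: Actb, Actg1, Tmsb4x, Tmsb10, Pfn1, Cfl1, Tpm3, Tpm4, Marcks and Marcksl1. They were taken by symbol, matched to the Entrez identifiers of the count tables, and all 10 of the 10 were found among the 24052 genes listed. They were chosen by their high counts in these libraries, so their abundance is a description and carries no test. Each of the 18 libraries counts 3′ ends of polyadenylated RNA from C57BL/6 marrow grown for 7 days in 20 ng/ml M-CSF. Experiment 1 holds 3 libraries in each of 4 groups of wild-type cells: dimethyl itaconate (DI) at 0.25 mM for 12 h followed by LPS at 100 ng/ml for 4 h (DI+LPS), vehicle for 12 h followed by the same LPS (LPS), DI without LPS (DI), and vehicle without LPS (vehicle). Experiment 2 holds 3 libraries of Irg1-/- and 3 of wild-type macrophages, all of which had LPS at 100 ng/ml with interferon gamma at 50 ng/ml for 24 h. DI is a membrane-permeable ester of itaconate, and Irg1 codes for the enzyme that makes itaconate in activated macrophages. Nothing in the labels says that libraries of a group came from separate animals or cultures, so the p-values measure the spread between these libraries, which may be technical.

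Actin cycles between a pool of monomers and filaments, and this cycle shapes the cell, drives its protrusions and moves it. Actb and Actg1 code for the cytoplasmic actins. Thymosin beta 4 (Tmsb4x) and thymosin beta 10 (Tmsb10) hold monomers in reserve, profilin 1 (Pfn1) feeds monomers to growing filament ends, and cofilin 1 (Cfl1) severs old filaments. Tropomyosins 3 and 4 (Tpm3, Tpm4) lie along filaments and set which proteins can bind them, while Marcks and Marcksl1 code for membrane-bound substrates of protein kinase C that bind actin and calmodulin. In macrophages, LPS is known to induce spreading and ruffling, and Marcks and Marcksl1 are classical LPS-responsive genes of these cells. Actb is also a common reference gene, and per the labels its qPCR values set how the libraries were pooled before sequencing.

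RefSeq promoter sequences (build GRCm38.p6, from 250 bases before to 50 bases after a start) were available for 8 of the 10 genes. None was available for Actb and Marcks, so these genes were not searched for any motif. The promoters of Actg1, Tpm4 and Marcksl1 are shown, since Actg1 is the actin whose counts did not follow Actb, and Tpm4 and Marcksl1 had the widest range of levels across the groups of experiment 1 within their families. In Actg1 (chr11:120348446-120348745, minus strand) the capitals mark the CArG box, the element that serum response factor binds, at positions -90 to -81 from the start. In Tpm4 (chr8:72135038-72135337, plus strand) the capitals mark a match to TGACNNNGC, the core of the antioxidant response element, at positions -115 to -107. In Marcksl1 (chr4:129513331-129513630, plus strand) they mark its 2 GC boxes, GGGCGG on either strand.
Actg1 promoter: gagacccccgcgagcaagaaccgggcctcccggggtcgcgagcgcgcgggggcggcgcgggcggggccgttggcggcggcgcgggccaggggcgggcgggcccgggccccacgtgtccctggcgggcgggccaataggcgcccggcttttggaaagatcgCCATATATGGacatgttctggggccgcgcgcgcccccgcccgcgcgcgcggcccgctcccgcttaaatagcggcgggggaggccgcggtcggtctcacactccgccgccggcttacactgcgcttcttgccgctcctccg
Tpm4 promoter: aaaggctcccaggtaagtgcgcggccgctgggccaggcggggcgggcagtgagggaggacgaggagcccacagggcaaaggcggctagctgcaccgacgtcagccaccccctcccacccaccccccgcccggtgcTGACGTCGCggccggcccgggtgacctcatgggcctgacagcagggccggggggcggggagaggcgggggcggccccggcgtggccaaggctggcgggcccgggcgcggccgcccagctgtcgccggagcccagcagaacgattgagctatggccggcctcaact
Marcksl1 promoter: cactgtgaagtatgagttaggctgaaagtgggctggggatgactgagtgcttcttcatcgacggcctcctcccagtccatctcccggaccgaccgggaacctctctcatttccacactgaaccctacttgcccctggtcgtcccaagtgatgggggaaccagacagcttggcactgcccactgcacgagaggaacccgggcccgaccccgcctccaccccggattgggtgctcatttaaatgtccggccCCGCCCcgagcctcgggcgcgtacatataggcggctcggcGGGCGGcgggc
All motifs were searched on both strands. The 8 genes have 11 promoters in the table, counting alternative starts. The CArG box was found in 1 of the 11, against 1.63% of 32851 promoters of the same length, and TGACNNNGC in 1 of the 11, against 12.4%. GGGCGG was found in 10 of the 11, against 35.7% of promoters, with 6 matches in Actg1 and 5 in Tpm4. TATAAA (13.6% of promoters), the kB site of NF-kB (4.51%) and the core of the interferon-stimulated response element (3.44%) had no match in these windows. A match is a description of the letters and says nothing of binding.

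Libraries held 955718 to 7629669 counts in experiment 1 and 3088644 to 5491684 in experiment 2. The 10 genes together took 1.98% to 4.50% of a library's counts in experiment 1 and 2.40% to 2.75% in experiment 2. LPS replicate 3 stands apart: it is the shallowest library, only 7653 genes had a count in it, and Actg1 had 8 counts there, so values without it are given beside several of the results. All 8 macrophage markers checked (Adgre1, Csf1r, Cd68, Itgam, Lyz2, Fcgr1, Cd14, Mertk) were detected in every group, and their summed level was 3410 to 4620 CPM in DI+LPS, 2950 to 3890 in LPS, 3460 to 5050 in DI and 7520 to 10500 in vehicle libraries. Of 7 neutrophil and progenitor markers listed, the summed level was 215 to 338 CPM in DI+LPS, 150 to 290 in LPS, 179 to 320 in DI and 350 to 517 in vehicle, with Mpo at 0 in DI+LPS and LPS. The 4 megakaryocyte and platelet markers summed to 196 to 311 CPM in DI+LPS, 23.0 to 110 in LPS, 58.7 to 75.7 in DI and 89.7 to 112 in vehicle, with Gp9 at 0 in all groups. The 8 stromal markers summed to 22.2 to 37.3 CPM in DI+LPS, 30.1 to 48.1 in LPS, 27.8 to 33.0 in DI and 46.5 to 78.3 in vehicle, with Lum at 0 in DI+LPS and LPS and Pdgfra at 0 in LPS. The 6 dendritic cell markers summed to at most 1.74 CPM in DI+LPS, 9.31 in LPS, 2.88 in DI and 9.87 in vehicle, and the 4 B and T cell markers to at most 0.916 CPM in any library. In experiment 2 the macrophage markers summed to 2090 to 2740 CPM in Irg1-/- and 2280 to 2710 in wild type, and the megakaryocyte and platelet markers to 15.1 to 20.8 CPM in Irg1-/- and 23.7 to 34.3 in wild type, without overlap. The neutrophil and progenitor markers summed to 9.10 to 12.3 CPM in Irg1-/- and 11.9 to 16.5 in wild type, the stromal markers to 10.6 to 18.4 in Irg1-/- and 10.2 to 20.9 in wild type, and the dendritic cell markers to 14.4 to 23.1 in Irg1-/- and 20.9 to 25.3 in wild type. The part of these marker differences in the results was not tested. Irg1 had 149, 56 and 182 counts in the Irg1-/- libraries and 12464, 14630 and 19145 in the wild-type libraries. The labels do not say which part of Irg1 was deleted.

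Levels are given as CPM, counts set against a common library total, after scaling the totals by TMM, a method that assumes most genes do not change. They are counts of 3′ ends, not divided by gene length, and the experiments were scaled separately. By count, Tmsb4x ranked 1 to 10 among all genes over the 18 libraries, Actb 6 to 32, Pfn1 32 to 116, Marcks 36 to 205, Cfl1 43 to 329 and Tpm3 33 to 285. Tpm4 ranked 64 to 1038 and Tmsb10 147 to 1005. Actg1 ranked 127 to 4874, and 127 to 665 without LPS replicate 3. Marcksl1 ranked 32 to 7033: it was abundant after LPS in experiment 1, and ranked 3131 to 3937 in vehicle libraries and 5659 to 7033 in DI libraries, so the word abundant does not hold for it there.

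Of the actin transcripts, Actb was higher after LPS alone, and was lower in cells that had DI before LPS than in cells that had LPS alone. Actb read 3974, 3926 and 3937 CPM in DI+LPS, 15633, 18173 and 9904 in LPS, 2842, 3020 and 2894 in DI, and 3779, 4180 and 3821 in vehicle libraries. All 3 LPS libraries lay above every other library of the experiment, the DI+LPS libraries lay within the range of vehicle, and the DI libraries lay below vehicle. With LPS alone Actb rose 3.71-fold over vehicle (log2 1.89, SE 0.31, adjusted p = 0.00012). In DI+LPS it was 3.69-fold lower than in LPS (log2 -1.88, SE 0.31, adjusted p = 0.00045). DI+LPS against DI was 1.35-fold (log2 0.44, SE 0.30, adjusted p = 0.36) and DI against vehicle log2 -0.43 (SE 0.30, adjusted p = 0.59), neither past the threshold of 0.05. Without LPS replicate 3, the rise with LPS was 4.40-fold. In bulk libraries of this kind, fewer cells of a type and less RNA per cell cannot be told apart.

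**Figure D1:**
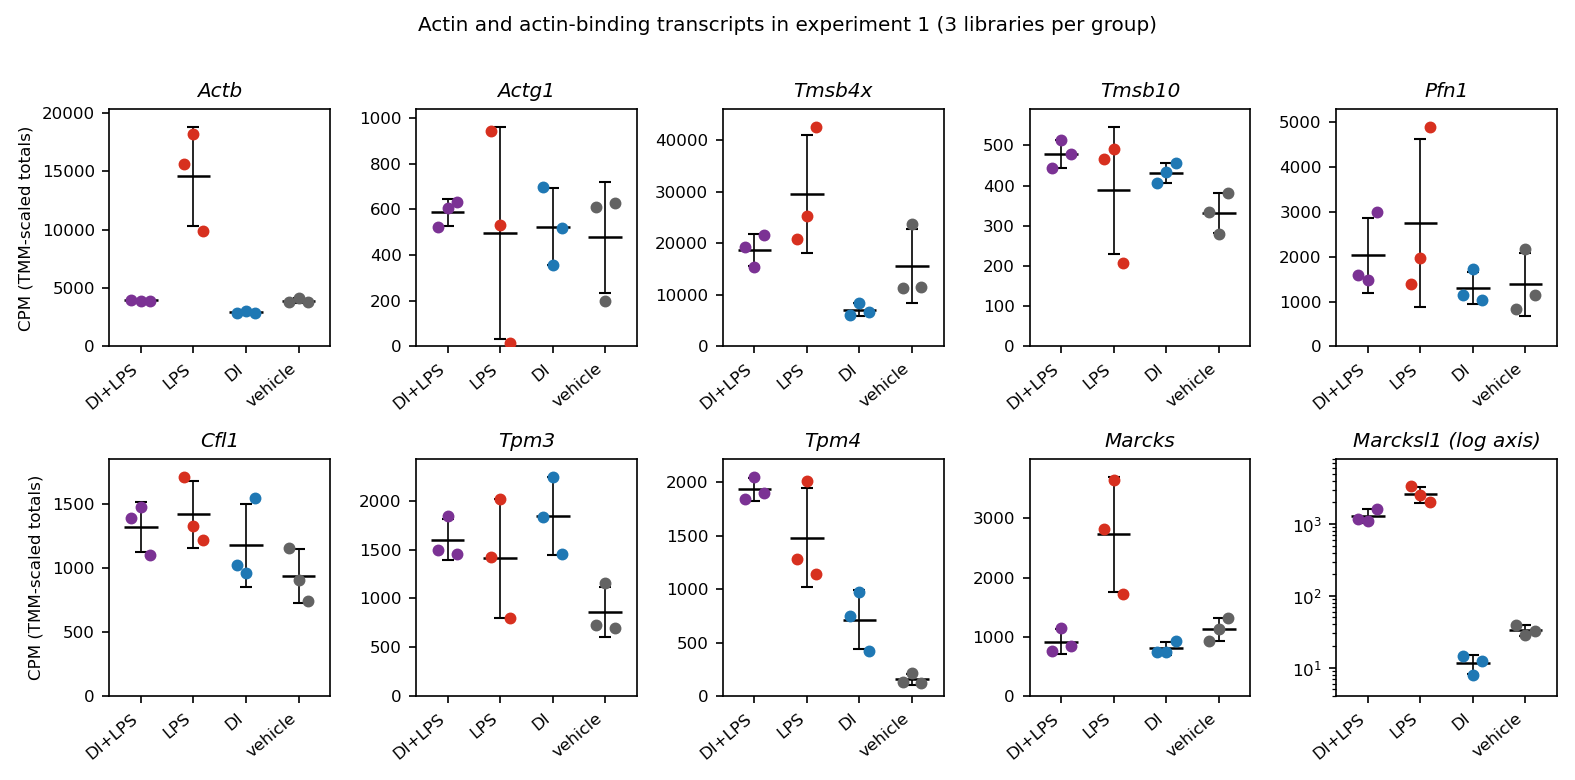
Levels of the 10 transcripts in experiment 1, as TMM-scaled CPM (y axis; logarithmic for Marcksl1) for each of the 3 libraries of a group (points), with the group mean (line) and SD (bars). Actb lies between 9904 and 18173 CPM in LPS libraries and between 3926 and 3974 CPM in DI+LPS libraries.

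Scaling matters for these values. Without TMM, as plain CPM of the library total, Actb read 3397, 3119 and 3139 in DI+LPS, 12535, 14087 and 5700 in LPS, 3620, 3489 and 3612 in DI, and 5541, 5508 and 5456 in vehicle libraries. On that scale the LPS libraries still all lay above vehicle, LPS replicate 3 by a narrow margin, while the DI+LPS libraries lay below both the DI and the vehicle libraries, and the rise with LPS was log2 0.97 (adjusted p = 0.019). That scaling moved the median of all genes by -0.94 (log2) for LPS against vehicle, so changes are read relative to that shift. The raw Actb counts, which the pooling by qPCR bears on, spanned 5448 to 47145 in experiment 1, an 8.65-fold range, beside a 7.98-fold range of library totals. In experiment 2 they spanned 13494 to 51437, a 3.81-fold range beside 1.78-fold for totals. Actb counts were not equal between libraries in either experiment; what part the pooling has in any level was not tested.

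Actg1, the other cytoplasmic actin, did not pass the test in any comparison. It read 523, 607 and 633 CPM in DI+LPS, 943, 532 and 14.5 in LPS, 697, 359 and 518 in DI, and 610, 198 and 629 in vehicle libraries. The groups overlapped throughout, and LPS replicate 3 and vehicle replicate 2 lay far below the other libraries of their groups. LPS against vehicle was log2 0.06 (SE 0.71, adjusted p = 0.96), and 0.66 (SE 0.39, adjusted p = 0.19) without LPS replicate 3. Its sign turns with the scaling, to -0.80 on library totals and -0.24 with upper-quartile factors. As a share of the counts of Actb and Actg1 together, Actg1 took 11.6%, 13.4% and 13.9% in DI+LPS libraries and 5.69%, 2.84% and 0.147% in LPS libraries, with no overlap. The share was 19.7%, 10.6% and 15.2% in DI and 13.9%, 4.52% and 14.1% in vehicle. Such shares come from within a library and do not depend on its scaling. No test was run on the shares.

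Of the monomer-holding thymosins, Tmsb4x was higher in DI+LPS than in DI, and Tmsb10 passed no test. Tmsb4x, the transcript that ranked highest, read 19167, 15310 and 21592 CPM in DI+LPS, 20863, 25267 and 42499 in LPS, 6125, 8511 and 6728 in DI, and 11407, 23778 and 11511 in vehicle libraries. Every DI+LPS library lay above every DI library, and every DI library lay below every vehicle library, while LPS and vehicle overlapped through vehicle replicate 2. Tmsb4x rose 2.62-fold in DI+LPS over DI (log2 1.39, SE 0.39, adjusted p = 0.015). That call was lost on library totals (log2 0.81, adjusted p = 0.081) and without DI replicate 1, DI replicate 3 or DI+LPS replicate 3 (adjusted p from 0.055 to 0.079). LPS against vehicle was 1.90-fold (log2 0.92, SE 0.38, adjusted p = 0.069). It passed without vehicle replicate 2 (2.56-fold, adjusted p = 0.017), without LPS replicate 1 (adjusted p = 0.046) and with no filter on low counts (adjusted p = 0.038), was 1.51-fold (adjusted p = 0.16) without LPS replicate 3, and had the other sign on library totals (log2 -0.087). DI against vehicle was log2 -1.13 (SE 0.38, adjusted p = 0.15), and -0.68 (adjusted p = 0.59) without vehicle replicate 2. The DI difference passed without LPS replicate 3 (log2 -1.10, adjusted p = 0.026), with DESeq2 (log2 -1.16, adjusted p = 0.035), with no filter (adjusted p = 0.039), on library totals (adjusted p = 0.046) and with both groups fitted alone (adjusted p = 0.048).

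Tmsb10 read 444, 512 and 478 CPM in DI+LPS, 467, 491 and 207 in LPS, 406, 434 and 455 in DI, and 334, 281 and 381 in vehicle libraries. The DI libraries all lay above vehicle, by 1.30-fold (log2 0.38, SE 0.31, adjusted p = 0.66). As a share of the counts of both thymosins, Tmsb10 took 2.27%, 3.24% and 2.17% in DI+LPS, 2.19%, 1.91% and 0.485% in LPS, 6.22%, 4.85% and 6.34% in DI, and 2.85%, 1.17% and 3.20% in vehicle libraries. The DI libraries had the highest shares of the experiment, above every library of the other groups.

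Profilin and cofilin, which feed and sever filaments, did not pass in any comparison with all libraries and the filter on low counts. Some alternatives called the change with LPS. Pfn1 read 1599, 1494 and 2996 CPM in DI+LPS, 1399, 1967 and 4896 in LPS, 1152, 1717 and 1044 in DI, and 836, 2176 and 1156 in vehicle libraries. A single library stood highest in each of DI+LPS and LPS, replicate 3 in both, and the groups overlapped. LPS against vehicle was 1.98-fold (log2 0.99, SE 0.46, adjusted p = 0.11), and 1.24-fold (adjusted p = 0.55) without LPS replicate 3. It passed without vehicle replicate 2 (2.75-fold, adjusted p = 0.035), without LPS replicate 1 (2.33-fold, adjusted p = 0.047) and with no filter on low counts (adjusted p = 0.034), and on library totals its sign turned (log2 -0.074). Against LPS, Pfn1 in DI+LPS was log2 -0.44 (SE 0.45, adjusted p = 0.56), and 0.26 (adjusted p = 0.69) without LPS replicate 3. Cfl1 read 1391, 1473 and 1102 CPM in DI+LPS, 1711, 1324 and 1216 in LPS, 1024, 961 and 1547 in DI, and 1159, 904 and 742 in vehicle libraries. The LPS libraries all lay above vehicle, by 1.52-fold (log2 0.60, SE 0.30, adjusted p = 0.13). Without LPS replicate 3 that difference passed (log2 0.74, adjusted p = 0.048), and on library totals it had the other sign (log2 -0.35, adjusted p = 0.37).

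The tropomyosin Tpm4 rose with LPS and also with DI alone. It read 1845, 2050 and 1898 CPM in DI+LPS, 1284, 2006 and 1145 in LPS, 748, 972 and 427 in DI, and 133, 216 and 127 in vehicle libraries. Every library of the treated groups lay above all vehicle libraries, and all DI+LPS libraries lay above DI. With LPS, Tpm4 rose 9.32-fold over vehicle (log2 3.22, SE 0.37, adjusted p = 2.8e-06). With DI it rose 4.51-fold (log2 2.17, SE 0.36, adjusted p = 0.0016), and in DI+LPS it rose a further 2.70-fold over DI (log2 1.43, SE 0.35, adjusted p = 0.0062). The last call was lost on library totals (log2 0.85, adjusted p = 0.082). DI+LPS and LPS overlapped (log2 0.38, SE 0.34, adjusted p = 0.49).

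Its relative Tpm3 read 1500, 1843 and 1458 CPM in DI+LPS, 1421, 2019 and 802 in LPS, 1828, 2245 and 1456 in DI, and 732, 1159 and 695 in vehicle libraries. The DI libraries lay above vehicle without overlap, by 2.14-fold (log2 1.10, SE 0.35, adjusted p = 0.11), which did not pass. Without LPS replicate 3, which enters through the shared estimate of spread, it passed (log2 1.12, adjusted p = 0.011), as did LPS against vehicle (log2 1.03, adjusted p = 0.0084), which was log2 0.72 (SE 0.35, adjusted p = 0.12) with it and -0.18 on library totals. The DI difference also passed with DESeq2 (adjusted p = 0.034), with no filter (adjusted p = 0.037) and with both groups fitted alone (adjusted p = 0.023). As a share of the counts of both tropomyosins, Tpm4 took 55.2%, 52.7% and 56.6% in DI+LPS, 47.5%, 49.8% and 58.8% in LPS, 29.0%, 30.2% and 22.7% in DI, and 15.4%, 15.7% and 15.5% in vehicle libraries. Within experiment 1, libraries with LPS, libraries with DI alone and vehicle libraries fell into ranges that did not overlap. The libraries of experiment 2, all with LPS and interferon gamma for 24 h, took 17.8% to 34.7%, which overlaps the range of DI alone.

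**Figure D2:**
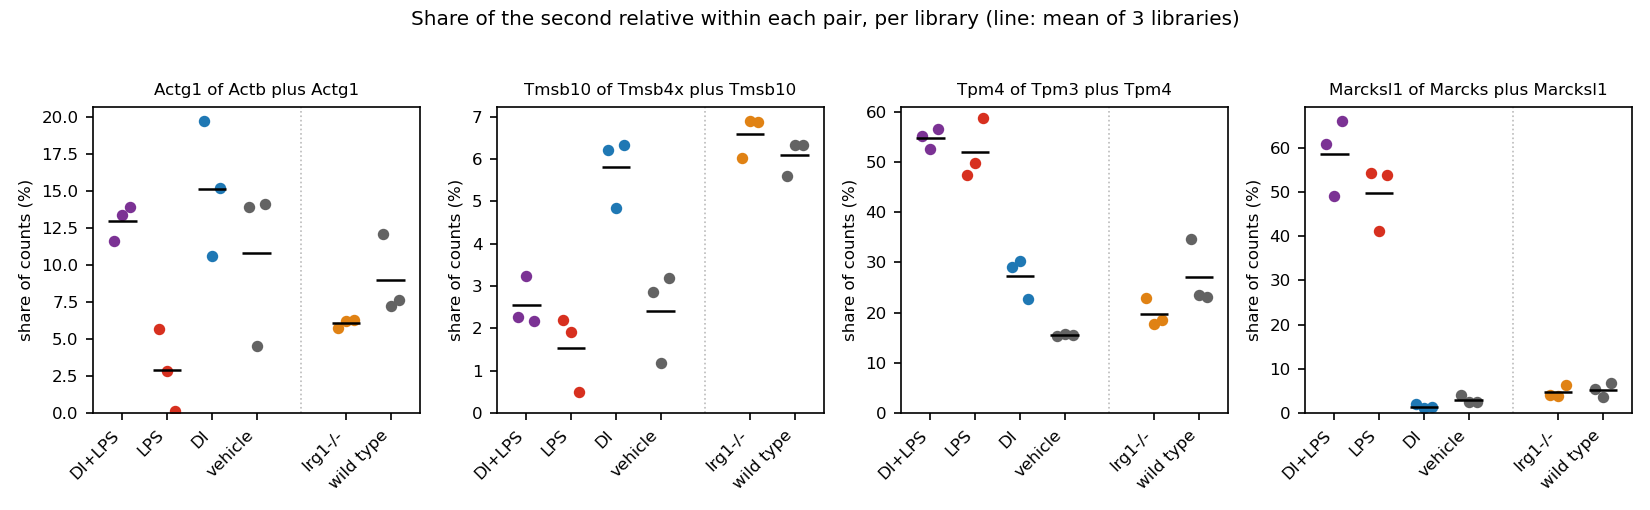
Share of counts (y axis, %) taken by Actg1, Tmsb10, Tpm4 and Marcksl1 within the pair each forms with its relative, per library (points) with the mean of 3 libraries (line), experiment 1 left and experiment 2 right of the dotted line. Tpm4 took between 15.4% and 15.7% of the tropomyosin pair in vehicle libraries and between 52.7% and 56.6% in DI+LPS libraries.

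Of the MARCKS family, both genes were highest after LPS alone and lower in DI+LPS, and Marcksl1 had the largest change with LPS of the 10 genes. Marcks read 765, 1159 and 846 CPM in DI+LPS, 2826, 3652 and 1722 in LPS, 741, 747 and 939 in DI, and 926, 1140 and 1317 in vehicle libraries. The LPS libraries lay above all others, and the other groups overlapped vehicle. As plain CPM of the library total, LPS replicate 3 (991) lay below all vehicle libraries (1360 to 1880), and LPS replicates 1 and 2 (2266 and 2831) lay above them. Marcks rose 2.43-fold with LPS (log2 1.28, SE 0.32, adjusted p = 0.0050), a call that was lost on library totals (log2 0.36, adjusted p = 0.38). In DI+LPS it was 2.96-fold lower than in LPS (log2 -1.57, SE 0.32, adjusted p = 0.0032). DI+LPS against DI was log2 0.19 (SE 0.32, adjusted p = 0.75).

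Marcksl1 read 1189, 1119 and 1640 CPM in DI+LPS, 3354, 2562 and 2011 in LPS, 14.7, 7.94 and 12.3 in DI, and 39.8, 28.6 and 32.2 in vehicle libraries. The groups did not overlap, in the order LPS, DI+LPS, vehicle, DI from high to low. It rose 78.5-fold with LPS (log2 6.29, SE 0.39, adjusted p = 2e-09) and 112-fold in DI+LPS over DI (log2 6.81, SE 0.40, adjusted p = 6.2e-09). With DI alone it fell 2.87-fold (log2 -1.52, SE 0.33, adjusted p = 0.013). That call was lost without vehicle replicate 1, DI replicate 2 or DI replicate 3 (adjusted p = 0.085, 0.099 and 0.064). In DI+LPS it was 2.01-fold lower than in LPS (log2 -1.01, SE 0.31, adjusted p = 0.036), a call kept in 5 of 12 fits that left out a library. The call was lost on library totals (adjusted p = 0.11) and with the 2 groups fitted alone (adjusted p = 0.11). It was lost without vehicle replicate 3, DI replicate 3, LPS replicate 1, LPS replicate 2 or any DI+LPS library, with adjusted p up to 0.16. As a share of the counts of Marcks and Marcksl1 together, Marcksl1 took 60.8%, 49.1% and 66.0% in DI+LPS, 54.3%, 41.2% and 53.9% in LPS, 1.95%, 1.05% and 1.29% in DI, and 4.12%, 2.45% and 2.39% in vehicle libraries. The share overlapped between DI+LPS and LPS.

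Over the 10 genes, 4 rose with LPS against vehicle and 0 fell, where 16.0% of the 10285 genes tested rose and 18.4% fell. Marcksl1 is among those that rose, and in experiment 1 its counts ranked high only in LPS and DI+LPS libraries. A gene chosen for high counts there can be higher with LPS by the choice itself. The 10 genes were also chosen with earlier results of these data known. The counts and medians of the 10, in each comparison of experiment 1, are therefore a description and no test of the set. Without LPS replicate 3, 6 of the 10 passed, where 37.9% of all genes did. The groups did not overlap for 5 of the 10, all with LPS higher, against 16.6% of all genes. The median change of the 10 was log2 0.96, and that of all genes tested -0.24. With DI against vehicle, 1 rose (Tpm4) and 1 fell (Marcksl1), where 1.33% of all genes rose and 1.51% fell; 6 did not overlap, against 30.5% of all genes. Without LPS replicate 3, 4 of the 10 passed with DI, where 7.56% of all genes did. In DI+LPS against LPS, 3 fell (Actb, Marcks, Marcksl1) and 0 rose, where 7.53% of all genes fell and 8.38% rose, with a median of -0.27 for the 10 and 0.13 for all genes. In DI+LPS against DI, 3 rose (Tmsb4x, Tpm4, Marcksl1) and 0 fell, where 11.4% of all genes rose and 7.56% fell. LPS against vehicle and DI+LPS against LPS share the LPS libraries, so low or high LPS libraries move both.

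**Figure D3:**
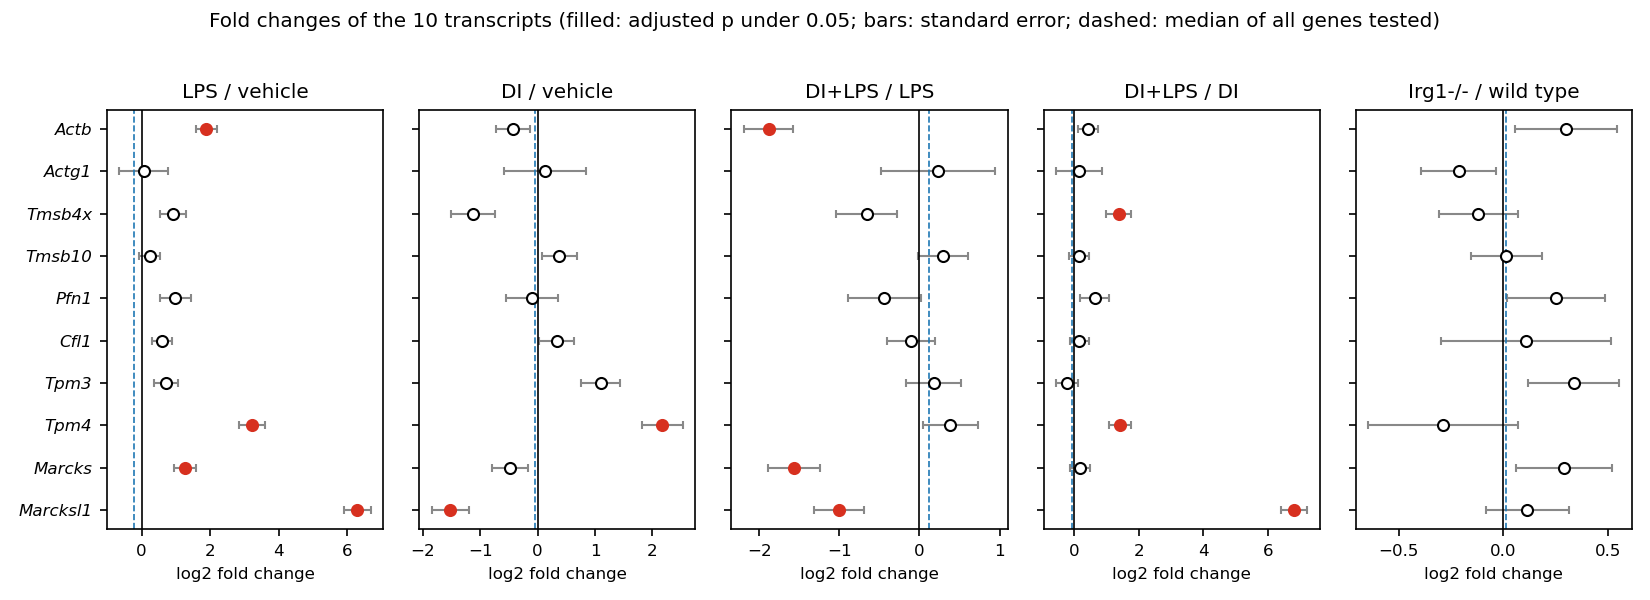
Log2 fold change (x axis) of each of the 10 transcripts in 5 comparisons, with the standard error (bars), filled where the adjusted p was under 0.05, and the median of all genes tested as a dashed line. Marcksl1 is at 6.29 in LPS against vehicle, and no symbol is filled in Irg1-/- against wild type; the x ranges differ.

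Whether DI changed the response to LPS was tested as an interaction, the LPS response with DI minus the LPS response without it. The test called 0 of the 10, where it called 2.91% of all genes; 3 of the 10 had an unadjusted p under 0.05, as did 18.1% of all genes. Actb had log2 -1.46 (SE 0.42, adjusted p = 0.073), Tpm4 -1.79 (SE 0.49, adjusted p = 0.054) and Marcks -1.09 (SE 0.45, adjusted p = 0.20). DESeq2 called 2 of the 10, where it called 7.93% of all genes, Actb (log2 -1.50, adjusted p = 0.00014) and Tpm4 (log2 -1.83, adjusted p = 0.0056). Without LPS replicate 3 edgeR called 3, where it called 7.58% of all genes, Actb (log2 -1.71, adjusted p = 0.0035), Tpm4 (log2 -1.98, adjusted p = 0.0080) and Marcks (log2 -1.37, adjusted p = 0.026). Tpm4 was also called without vehicle replicate 2 (adjusted p = 0.041), DI replicate 3 (adjusted p = 0.042) or LPS replicate 1 (adjusted p = 0.049). With all libraries, edgeR called Tpm4 with median-of-ratios factors (adjusted p = 0.046), no filter (adjusted p = 0.013) and the replicate number as a block (adjusted p = 0.034). It did not call Tpm4 on library totals (adjusted p = 0.12). Marcksl1 had log2 0.52 (SE 0.45, adjusted p = 0.59).

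The wider actin system was read from 9 lists of 127 genes, of which 120 were tested in experiment 1. With LPS, 31 of the 120 rose (25.8%) and 12 fell, where 16.0% of all genes rose and 18.4% fell. Filament crosslinkers and linkers had 11 of 21 higher and 0 lower, with a median of log2 0.97. Among them was Fscn1, the bundling protein fascin (20.3-fold; 12.7 ± 5.83 CPM in LPS and 0.515 ± 0.485 in vehicle libraries, SD, n = 3 each). Nucleation factors and formins had 7 of 18 higher and 1 lower, with the formin Fmnl2 at 12.7-fold. Capping, severing and turnover factors split, with 4 of 21 higher and 5 lower. Ssh2, a phosphatase that activates cofilin, fell 7.62-fold (adjusted p = 3.2e-05), and Limk1, the kinase that inactivates cofilin, had 2 counts over the LPS libraries and 124 over the vehicle libraries, which gives a ratio between 0.00704 and 0.217 by counting error. Of the MARCKS-related genes 1 of 7 rose and 3 fell. Prkca, a protein kinase C, was among those that fell, with 0 counts in LPS and 41 in vehicle libraries, a ratio of at most 0.343 by counting error. Of the 9 subunits of the Arp2/3 complex, which nucleates branched filaments, 1 rose (Arpc5, 3.27-fold, adjusted p = 0.0021).

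With DI alone, 5 of the 120 rose (4.17%) and 1 fell (0.833%), where 1.33% of all genes rose and 1.51% fell. Tpm1, a further tropomyosin, rose 3.27-fold (260 ± 83.7 CPM in DI and 79.2 ± 17.0 in vehicle libraries; adjusted p = 0.012). Myh9, the heavy chain of nonmuscle myosin, rose 2.74-fold (adjusted p = 0.022) and Prkcb, a protein kinase C, rose 2.85-fold (adjusted p = 0.013). Gmfg, which removes Arp2/3 branches, fell 3.68-fold (18.7 ± 1.40 CPM in DI and 68.7 ± 9.67 in vehicle libraries; adjusted p = 0.0012). Of the tropomyosins, Tpm1 and Tpm4 rose with DI alone, and Tpm3 did not pass (2.14-fold).

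In DI+LPS against LPS, 13 of the 120 rose and 10 fell, where 8.38% of all genes rose and 7.53% fell. Ezr, the membrane linker ezrin, was 5.79-fold higher (1130 ± 116 CPM in DI+LPS and 194 ± 9.18 in LPS libraries), and Myh9 5.36-fold higher (379 ± 150 CPM in DI+LPS and 70.2 ± 15.7 in LPS libraries). Prkca was also higher, with 21 counts in DI+LPS and 0 in LPS libraries, a ratio of at least 2.41 by counting error. Fscn1 (17.9-fold) and the myosin Myo1e (3.54-fold) were lower. Of the SRF list, 5 of 18 rose and 0 fell; these were Myh9, Flna, Tpm1, Vcl and Mrtfb, while Actb, itself a classical SRF target, fell. In DI+LPS against DI, 23 of the 120 rose and 9 fell, where 11.4% of all genes rose and 7.56% fell. Ezr rose 24.3-fold, the adhesion protein Zyx 17.4-fold and the cortactin homologue Hcls1 9.30-fold. The coronin Coro1c (3.76-fold), the actin-sensing SRF coactivator Mrtfa (3.57-fold) and the filament-binding supervillin Svil (3.21-fold) fell. The interaction called 4 of the 120 higher and 1 lower, where 1.39% of all genes were higher and 1.52% lower. The 4 higher were the adhesion protein Vcl (log2 2.85, adjusted p = 0.039), Hcls1 (1.90, adjusted p = 0.016), Ssh2 (2.05, adjusted p = 0.049) and Rhog.

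**Figure D4:**
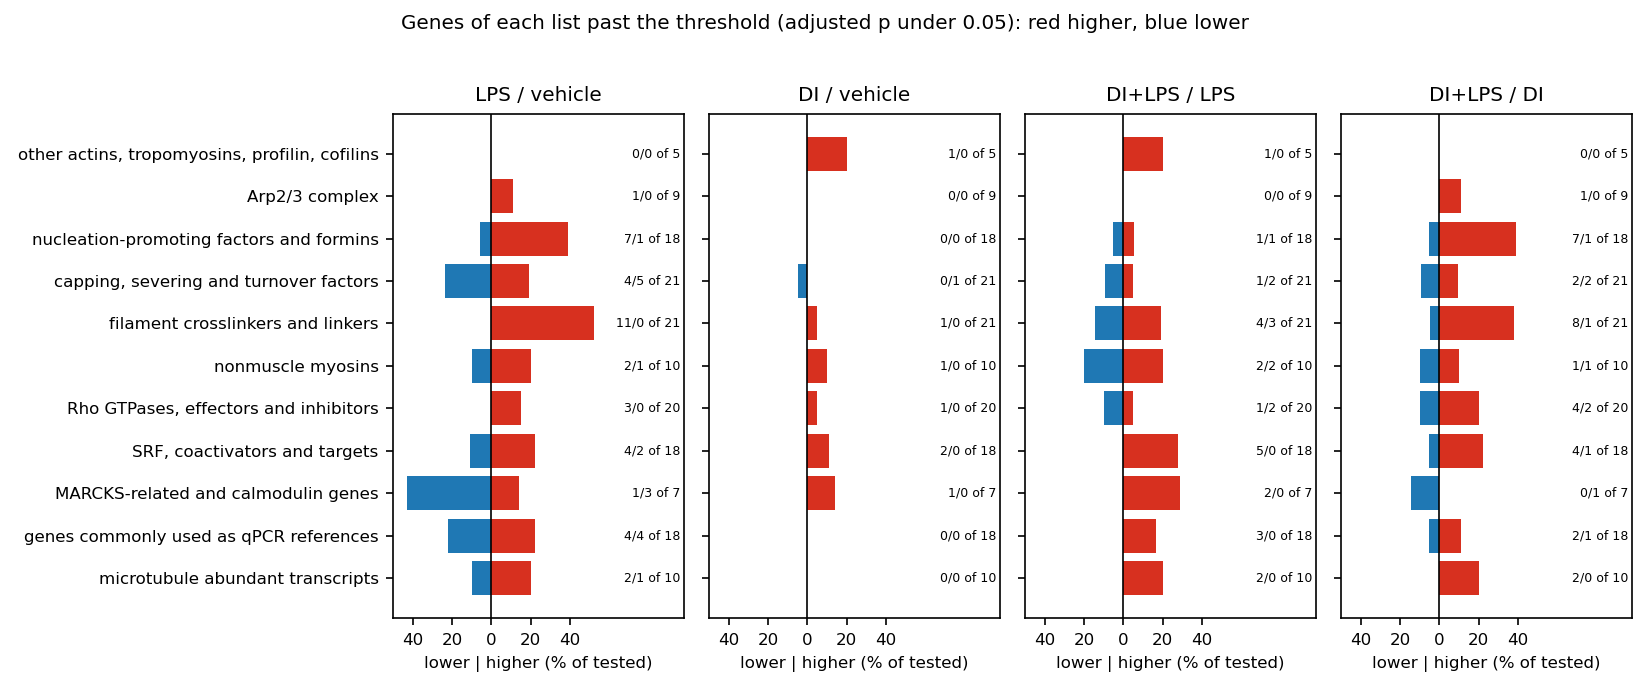
Share of the tested genes of each list (x axis, %) that passed an adjusted p of 0.05 as higher (red, right) or lower (blue, left) in the 4 comparisons of experiment 1, with the number higher, the number lower and the number tested beside each bar. Crosslinkers and linkers had 11 of 21 higher with LPS against vehicle.

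Other genes commonly used as qPCR references were called with LPS at a rate near that of all genes. Of 18 listed, 4 rose and 4 fell against vehicle, beside the 16.0% and 18.4% of all genes. Ywhaz (2.53-fold), Pgk1 (2.26-fold) and B2m (2.21-fold) rose, and Polr2a (2.53-fold) and Eef2 (1.75-fold) fell. In DI+LPS against LPS, Pgk1 (3.01-fold), Ppia (2.51-fold) and Hprt (2.39-fold) were higher and 0 were lower, where 8.38% of all genes were higher and 7.53% lower. With DI alone 0 of the 18 passed edgeR's test, where 2.84% of all genes did; 4 had an unadjusted p under 0.05 and DESeq2 called 2, where it called 6.36% of all genes. Of 10 abundant microtubule transcripts, 2 rose and 1 fell with LPS.

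Across the 12 libraries of experiment 1, the genes whose log2 CPM followed Actb most closely, among 5149 genes with a mean of at least 20 CPM, were Vrk1 (Pearson r 0.978), Fgl2 (0.971), Slc28a2 (0.960), Wars (0.959) and Cp (0.956). Those that followed Marcksl1 were Ifi47 (0.996), Usp18 (0.995), Tap1 (0.994), Phf11b (0.993) and Dtx3l (0.993). Among the 10 genes themselves, Actb and Marcks were closest (0.948), and Actg1 and Pfn1 were the most opposed (-0.746), a value in which LPS replicate 3 lay at the low end for Actg1 and the high end for Pfn1. Over the 11 libraries without it, these were 0.951 for Actb and Marcks and -0.359 for Actg1 and Pfn1. The libraries share group means, depth and scaling, so these values describe the pattern of the groups and carry no p.

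In experiment 2, after 24 h of LPS with interferon gamma, no difference between Irg1-/- and wild type passed the test in the fit without a replicate term. In that fit edgeR called 0 of the 10, where it called 0.0632% of 9491 genes, 0 of the 10 had an unadjusted p under 0.05 (7.01% of all genes did), and DESeq2 called 0, where it called 0.379% of all genes. Actb read 7527, 9167 and 8907 CPM in Irg1-/- and 4484, 8366 and 7922 in wild-type libraries. Wild-type replicate 1 lay lowest and the groups overlapped (1.23-fold, log2 0.30, SE 0.24, adjusted p = 0.94). Tpm3 read 1377, 925 and 871 CPM in Irg1-/- and 984, 801 and 729 in wild-type libraries, which also overlapped (1.26-fold, log2 0.34, SE 0.22, adjusted p = 0.87).

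Same-numbered libraries of experiment 2 deviated together, so the fit with the replicate number as a block was also read. It called 6.26% of all genes, 2.90% as higher and 3.36% as lower. Of the 10 genes it called 2 as higher, Actb (log2 0.35, adjusted p = 0.014) and Tpm3 (log2 0.32, adjusted p = 0.026). Each was higher in the Irg1-/- library in 3 of 3 same-numbered pairs, a pairing that the labels do not state. The Actb pairs were unlike in size, at 7527 against 4484, 9167 against 8366 and 8907 against 7922 CPM. In fits without the block that left out a library, Actb ranged from log2 0.068 to 0.46 and Tpm3 from 0.10 to 0.47. Marcks was also higher in 3 of 3 pairs, at 1698, 2366 and 1438 CPM in Irg1-/- and 1532, 1774 and 1197 in wild-type libraries, and did not pass in that fit (log2 0.28, adjusted p = 0.054). Tpm4 read 411, 201 and 197 CPM in Irg1-/- and 522, 248 and 219 in wild-type libraries, lower in 3 of 3 pairs, with log2 -0.27 and adjusted p = 0.10 under the block. The Irg1-/- and wild-type replicate 1 libraries had the most Tpm4 and Tpm3 of their groups.

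**Figure D5:**
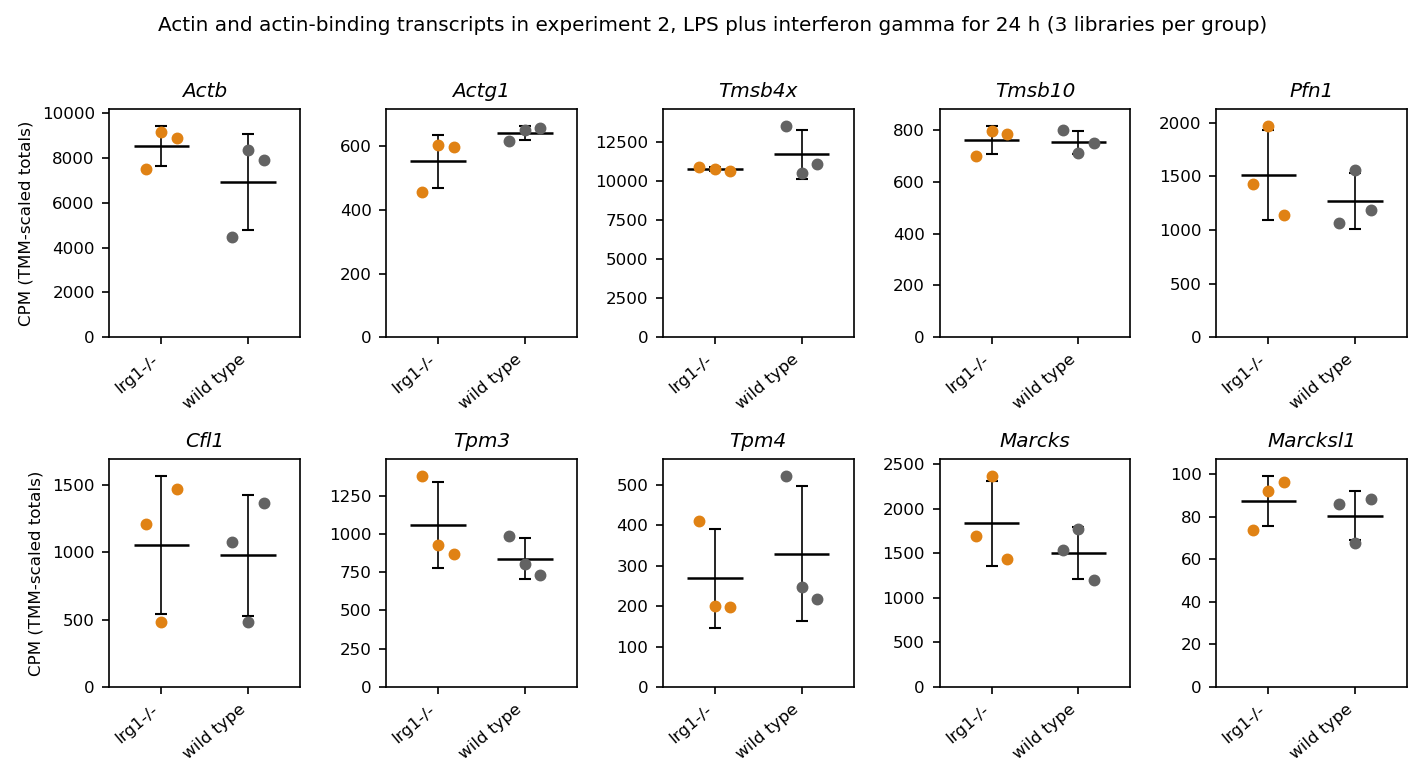
Levels of the 10 transcripts in experiment 2, as TMM-scaled CPM (y axis) for each of the 3 libraries of a group (points), with the group mean (line) and SD (bars). Only for Actg1 do the groups not overlap, at 458 to 605 CPM in Irg1-/- and 617 to 657 CPM in wild-type libraries.

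For the remaining genes of experiment 2 the CPM of the 2 genotypes overlapped, apart from Actg1. Actg1 read 458, 605 and 597 CPM in Irg1-/- and 617, 651 and 657 in wild-type libraries; the groups did not overlap, as for 13.4% of all genes, and the difference did not pass (log2 -0.21, SE 0.18, adjusted p = 0.94; 0.17 under the block). Tmsb4x averaged 10800 ± 136 CPM in Irg1-/- and 11700 ± 1580 in wild-type libraries, and Tmsb10 averaged 762 ± 54.1 CPM in Irg1-/- and 755 ± 44.3 in wild-type libraries (SD, n = 3 each). Pfn1 averaged 1510 ± 422 CPM in Irg1-/- and 1270 ± 262 in wild-type libraries. Cfl1 averaged 1050 ± 512 CPM in Irg1-/- and 974 ± 451 in wild-type libraries, with replicate 2 the lowest library of both genotypes (479 CPM in Irg1-/- and 481 in wild type). Marcksl1 averaged 87.3 ± 11.8 CPM in Irg1-/- and 80.5 ± 11.4 in wild-type libraries and took 3.66% to 6.85% of its pair's counts over the 6 libraries. The Marcksl1 and Tmsb10 shares overlapped between the genotypes. Actg1 took 5.73% to 6.28% of its pair's counts in Irg1-/- and 7.22% to 12.1% in wild-type libraries, without overlap. Tpm4 took 17.8% to 23.0% in Irg1-/- and 23.1% to 34.7% in wild type, apart by a narrow margin. These shares were not tested. Of the 127 genes of the actin lists, 113 were tested in experiment 2, and 0 passed edgeR's test without the block, where 3 had an unadjusted p under 0.05 and DESeq2 called 1. With the block, 7 were higher and 5 lower, where 2.90% of all genes were higher and 3.36% lower. No test was made between the experiments.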

How the data were processed

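Per the labels' protocols, mRNA was captured on oligo-dT beads, copied from barcoded oligo-dT primers, and the cDNA was combined by Actb qPCR values and amplified. The submitters' processing notes name STAR, HTSeq, DESeq2 and mm10, with no versions, and the sources used here give neither the annotation nor the strand option of the counting. The values deposited by the authors are raw counts per gene with Entrez identifiers. Molecular identifiers are not mentioned, so PCR copies are counted, and intervals cover counting error only. Reads of near-identical copies (processed pseudogenes of actins, cofilin, profilin, thymosins and Tpm3) are uncertain in their assignment. Of 24052 genes, 23969 were matched to a symbol.

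The experiments were fitted apart in edgeR 4.0.16 (R 4.3.3; TMM, filterByExpr with a minimum count of 10, a mean per group, 2-sided quasi-likelihood F test, Benjamini-Hochberg adjustment over all genes tested, threshold 0.05), on 10285 and 9491 genes. The steps were tested on simulated counts. Genes beyond the 10 were named by rule: in each comparison the 3 largest increases and the 3 largest decreases among called genes of the actin lists, and up to 6 called reference genes; some genes under this rule are not reported here. Genes named as the members of a small count, as the called genes of the SRF list, and Arpc5 were named after their values were seen. The 10 genes and the lists were chosen with earlier results of these data known. Alternatives were DESeq2 1.42.0, other scalings, no filter, fits of 2 groups only, the replicate block and leaving out each library. In experiment 2 the deviations of same-numbered libraries correlated at 0.354 to 0.455 in 3 of 3 pairs, a pairing read from the data, not stated in the labels.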

Additional observations from a re-analysis of the deposited data

How the results depend on the processing

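Leaving out LPS replicate 3 and scaling on library totals each changed calls or signs of members; depth was not varied. Of 1060 values of single genes under alternatives, 958 kept their direction and side of the threshold, 32 newly passed, 18 no longer passed and 52 turned sign.

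On library totals only, LPS against vehicle became -0.80 for Actg1, -0.087 for Tmsb4x, -0.68 for Tmsb10, -0.074 for Pfn1, -0.35 for Cfl1 and -0.18 for Tpm3 (log2). DI against vehicle became -0.077 for Actg1, and DI+LPS against LPS 0.062 for Cfl1. DI+LPS against DI became -0.15 for Actb, -0.44 for Actg1, -0.44 for Tmsb10, -0.43 for Cfl1 and -0.41 for Marcks, and the interaction 0.24 for Tmsb10 and 0.13 for Pfn1. This scaling moved the median of all genes by -0.94 (LPS against vehicle), -0.20 (DI against vehicle), 0.15 (DI+LPS against LPS), -0.59 (DI+LPS against DI) and 0.35 (interaction), and the cause of each turn was not tested beyond that shift. With upper-quartile factors LPS against vehicle was -0.24 for Actg1 and -0.025 for Tmsb10, and DI+LPS against DI -0.060 for Actg1, -0.069 for Tmsb10, -0.051 for Cfl1 and -0.027 for Marcks. Actg1 in LPS against vehicle was also -0.056 with median-of-ratios factors and -0.067 with DESeq2.

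Members past the threshold in DI against vehicle numbered 4 with no filter, with DESeq2 and with the 2 groups fitted alone, against 2. These fits called 458 of 14573, 654 of 10285 and 1013 of 10318 genes, against 292 of 10285. In DI+LPS against DI, 1 member passed on library totals, against 3, where 2736 of 10285 genes passed, against 1948. For the interaction, members past the threshold numbered 1 with median-of-ratios factors, with upper-quartile factors and with no filter, and 2 with DESeq2, against 0. In that order, these fits called 321 of 10285, 322 of 10285, 497 of 14573 and 816 of 10285 genes, against 299 of 10285.

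Leaving out a library, members past the threshold ranged from 4 to 6 (LPS against vehicle), 1 to 4 (DI against vehicle), 2 to 3 (DI+LPS against LPS), 2 to 3 (DI+LPS against DI), 0 to 3 (interaction), and was 0 throughout for Irg1-/- against wild type. Signs turned within these log2 ranges: LPS against vehicle, Actg1 -0.78 to 0.66; DI against vehicle, Actg1 -0.23 to 0.38 and Pfn1 -0.35 to 0.40; DI+LPS against LPS, Actg1 -0.36 to 1.09, Tmsb10 -0.021 to 0.50, Pfn1 -0.76 to 0.26, Cfl1 -0.22 to 0.12 and Tpm3 -0.12 to 0.54. In DI+LPS against DI they were Actg1 -0.051 to 0.42 and Marcks -0.0085 to 0.31, in the interaction Actg1 -0.51 to 0.93, Tmsb10 -0.42 to 0.099 and Pfn1 -0.82 to 0.32, and in Irg1-/- against wild type Tmsb10 -0.027 to 0.074, Cfl1 -0.22 to 0.46 and Tpm4 -0.72 to 0.21.

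With the replicate number as a block in experiment 1, Actg1 in LPS against vehicle was -0.053, the interaction called 1 member (Tpm4) against 0, and DI against vehicle called 3 against 2. Of all 10285 genes, that fit called 257 for the interaction, against 299, and 276 for DI against vehicle, against 292. Whether the numbers pair those libraries is not settled by the labels or by these values. Of 18 same-numbered pairs, 6 correlated over 0.1 (range -0.141 to 0.231), and differently numbered pairs ranged from -0.214 to 0.177. In experiment 2 the block called 2 members against 0, and 594 genes against 6.

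Counts over all genes moved by over 1.5 times in these cases of the settings other than leaving out a library. LPS against vehicle called 3529 genes, 5803 on library totals and 2108 with the 2 groups alone. DI against vehicle called 292, and 458 with no filter, 654 with DESeq2 and 1013 with the 2 groups alone. DI+LPS against LPS called 1636, and 653 with the 2 groups alone. DI+LPS against DI called 1948, and 3196 with the 2 groups alone. The interaction called 299, and 497 with no filter and 816 with DESeq2. Irg1-/- against wild type called 6, and 40 with no filter, 36 with DESeq2 and 594 with the replicate block. Leaving out a library, the calls ranged from 2762 to 4026 (LPS against vehicle), 140 to 803 (DI against vehicle), 885 to 1948 (DI+LPS against LPS), 1362 to 2831 (DI+LPS against DI), 132 to 806 (interaction) and 3 to 6 (Irg1-/- against wild type). DI against vehicle called 803 without LPS replicate 3, and 140 to 171 without any one vehicle or DI library. DI+LPS against LPS called 885 without DI+LPS replicate 1 and 1003 without DI+LPS replicate 2. The interaction called 806 without LPS replicate 3 and 542 without LPS replicate 1, 132 to 162 without any one DI or DI+LPS library, and 137 without vehicle replicate 1 or 3. Irg1-/- against wild type called 3 without replicate 3 of either genotype.

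On library totals the share of calls that were higher was 14.7% for LPS against vehicle (46.5% with TMM), 27.1% for DI against vehicle (46.9%), 63.1% for DI+LPS against LPS (52.7%), 25.9% for DI+LPS against DI (60.1%) and 71.4% for the interaction (47.8%). With upper-quartile factors it was 35.3% for LPS against vehicle and 45.5% for DI+LPS against DI.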
